A study of Mus musculus with 4 samples.

Results

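The balance between clotting and clot removal at the peritoneal surface was described through 10 genes, chosen by symbol from a table of 48425 genes: Plat, Plau, Plaur, Plgrkt, Thbd, Procr, Tfpi, F3, F5 and F13a1. RNA was measured in mesothelial cells, the thin cell sheet over the serosal surface of the abdomen. The cells were taken from 4 C57BL/6 mice at 10 weeks of age, all labelled WT (wild type), and sequenced as 1 library each. There was 1 group, freshly isolated from mice at homeostasis, so levels could be compared between genes and between animals but not between conditions. The cells were loosened with trypsin inside the cavity and sorted as CD45- Pdpn+ GPM6a+. RNA from other cells that passed this gate is part of each value.

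As background, clotting starts when tissue factor (F3) meets factor VII and the resulting complex leads to thrombin, which turns fibrinogen into fibrin. Tissue factor pathway inhibitor (Tfpi) blocks that first step, and thrombomodulin (Thbd) with the endothelial protein C receptor (Procr) turns thrombin towards the activation of protein C, which inactivates factor V. Fibrin is removed by plasmin, which tissue-type (Plat) and urokinase-type (Plau) plasminogen activators form from plasminogen. Mesothelium is known for its fibrinolytic activity, and fibrin that stays on a serosal surface is the scaffold on which adhesions form.

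All 12 mesothelial marker genes listed lay above 1 CPM (the estimated count divided by the library's total, times 1000000), and Upk3b, Krt19 and Msln averaged 4135 ± 236, 2300 ± 954 and 2257 ± 393 CPM (SD, n = 4 animals). Pdpn and Gpm6a are among these 12 genes and were markers of the sort, so their levels are no separate check of it. The same holds for Ptprc in the macrophage list, which encodes CD45. Over all genes, 24.7% lay above 1 CPM by the same test, which is described below. The library totals were 4090224 to 4569578 estimated counts. Of 14 macrophage and monocyte genes 2 lay above 1 CPM, Csf1r and Cd68, whereas Itgam and Timd4 had no count. Of 12 blood endothelial genes 3 did, Esam, Kdr and Tek, whereas Cdh5, Emcn, Sele, Cldn5 and Erg had none. Of 8 platelet and megakaryocyte genes 2 did, Itgb3 and Itga2b, and Treml1 had none. Hepatocyte genes gave 1 of 7, Cps1, with Alb at 0, and mast cell and granulocyte genes 0 of 9 by edgeR, where 0 passed without adjustment at 0.05 and limma with voom weights called 1. Fibroblast genes gave 9 of 10 above 1 CPM, at unlike levels. Dcn averaged 12889 CPM, and Col3a1, Col1a2 and Col1a1 averaged 2741, 1141 and 1040 CPM. Mfap5 and Lum averaged 107 and 76.0 CPM, and Thy1, Pdgfra and Dpt 26.5, 25.5 and 7.97 CPM. Pi16, at 1.55 CPM, did not pass. In bulk libraries of this kind, fewer cells of a type and less RNA per cell cannot be told apart.

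Upstream sequence was examined for the members that RefSeq's promoter table holds, 7 of 10 genes in 9 windows of 250 bases before the annotated start (GRCm38.p6). Plaur, Procr and F3 each held the letters TGACTCA once, read on either strand, on which it becomes TGAGTCA. That is the textbook site of AP-1, the dimers of Fos and Jun proteins, and the motif was picked after these windows had been read. These genes are 3 of the 5 members whose lowest level was in the same animal, as described below. Plgrkt and Tfpi are the others, and their windows lack the motif. Plat and Thbd, which were not lowest in that animal, have no window. A link between motif and level was thus not tested, and the windows of Plaur, Procr and F3 are shown for their letters only. The motif is in capitals, the strand is that of the gene (plus in all of these), and bases that either annotation counts as transcribed were left out.
F3, chr3:121723287-121723536: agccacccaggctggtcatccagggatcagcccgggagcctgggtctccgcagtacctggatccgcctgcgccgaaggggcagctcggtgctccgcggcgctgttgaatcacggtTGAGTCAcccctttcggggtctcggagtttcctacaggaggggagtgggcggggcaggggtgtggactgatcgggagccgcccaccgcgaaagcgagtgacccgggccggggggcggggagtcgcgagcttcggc
Plaur, chr7:24462233-24462482: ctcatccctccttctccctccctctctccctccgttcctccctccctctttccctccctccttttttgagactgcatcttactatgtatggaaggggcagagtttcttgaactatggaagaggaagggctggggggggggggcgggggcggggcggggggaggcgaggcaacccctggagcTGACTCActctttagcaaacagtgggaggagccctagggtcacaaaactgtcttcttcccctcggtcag
Procr, chr2:155750967-155751116: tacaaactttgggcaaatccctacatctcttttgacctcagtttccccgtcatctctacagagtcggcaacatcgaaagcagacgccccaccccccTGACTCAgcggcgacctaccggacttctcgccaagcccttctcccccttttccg

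Counted back from the RefSeq start, the motif began 135 bases before it in F3, 69 in Plaur and 154 in Procr. The windows of Plgrkt, Tfpi, F5 and F13a1 did not hold these letters. Of all 32851 windows in it, 4.46% held the motif, and among the 6719 genes with a window and a mean of at least 10 CPM the share was 3.84%. A match describes the letters and is not a measured binding site. Plat, Plau and Thbd have no entry in the table.

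Of the 10 genes, 8 exceeded 1 CPM in the one-sided quasi-likelihood test of edgeR, adjusted over the whole table, and the other two had no count in any animal. Over all genes, 24.7% of genes passed the same test, and 11943 of the 22936 genes with any count did, which is 52.1%. The median of the gene means was 49.2 CPM over the 10 genes, against 0 over the table. CPM is not divided by transcript length except where stated.

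**Figure D1:**
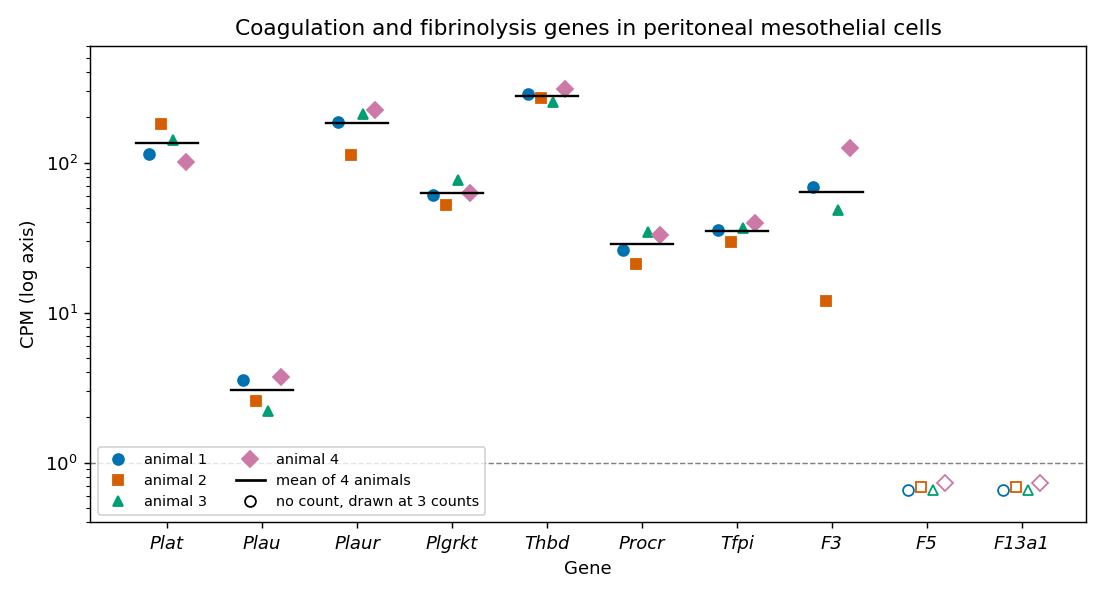
CPM of the 10 genes on a log axis, 1 symbol per animal, with the mean as a black line and a dashed line at 1 CPM. Thbd was the highest at 279 CPM, Plau lay near 3 CPM, F3 was the most scattered, and F5 and F13a1 had no count and are drawn as open symbols at the level of 3 counts.

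The plasminogen activators were unequal. Plat, which encodes tissue-type plasminogen activator and lies on chromosome 8 at 22757727 to 22782844 (GRCm38, plus strand), had 115, 180, 143 and 100 CPM in animals 1 to 4, a mean of 135 ± 35.1 CPM (SD). Animal 2 was the highest and animal 4 the lowest, 1.80-fold apart. Plau, the urokinase gene, on chromosome 14 at 20836660 to 20843385, had 3.56, 2.58, 2.22 and 3.75 CPM, a mean of 3.03 ± 0.744 CPM.

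Plau rested on 10 to 16 counts per animal and 53.0 in all. Its exact 95% Poisson intervals, which cover counting error only, ran from 1.05 to 4.04 CPM in animal 3 and from 2.05 to 6.05 CPM in animal 4. They overlap, so the order of the animals for Plau was not resolved at this depth. Plau still exceeded 1 CPM (adjusted p = 0.00437 by edgeR's quasi-likelihood test), the weakest of the 8 calls.

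Per kilobase of transcript, Plat stood above Plau in 4 of 4 animals, by 4.04, 5.09, 4.93 and 3.78 on the log2 scale (mean 4.46, SE 0.323). The exact two-sided sign-flip permutation p was 0.13, which is the smallest that 4 animals allow, and 0.156 after adjustment over the 10 gene pairs compared. Plat had 28.5, 44.6, 35.3 and 24.9 CPM per kb in animals 1 to 4.

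The receptor genes stood well above Plau. Plaur, on chromosome 7 at 24462484 to 24475968, encodes the urokinase receptor, a glycolipid-anchored protein that holds urokinase at the cell surface. It had 187, 113, 212 and 223 CPM in animals 1 to 4, a mean of 184 ± 49.6 CPM. Animals 1, 3 and 4 lay close together and animal 2 lay below them, outside their range.

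Per length, Plaur exceeded Plau in 4 of 4 animals by 5.91 on the log2 scale (SE 0.227, exact permutation p = 0.13). Taken without the 0.5 CPM that is added for the log2 values, the receptor transcript stood at 51.2 to 111 times the level of its ligand's transcript. The lower term of this ratio rests on few counts. Plgrkt, on chromosome 19 at 29348599 to 29367390, encodes a membrane receptor that binds plasminogen. It had 61.2, 52.3, 76.8 and 62.4 CPM, a mean of 63.2 ± 10.1 CPM. Per length it lay under Plaur in 4 of 4 animals (mean log2 difference, Plgrkt minus Plaur, -0.52, SE 0.152, exact permutation p = 0.13), and the gap was smallest in animal 2, at -0.13.

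**Figure D2:**
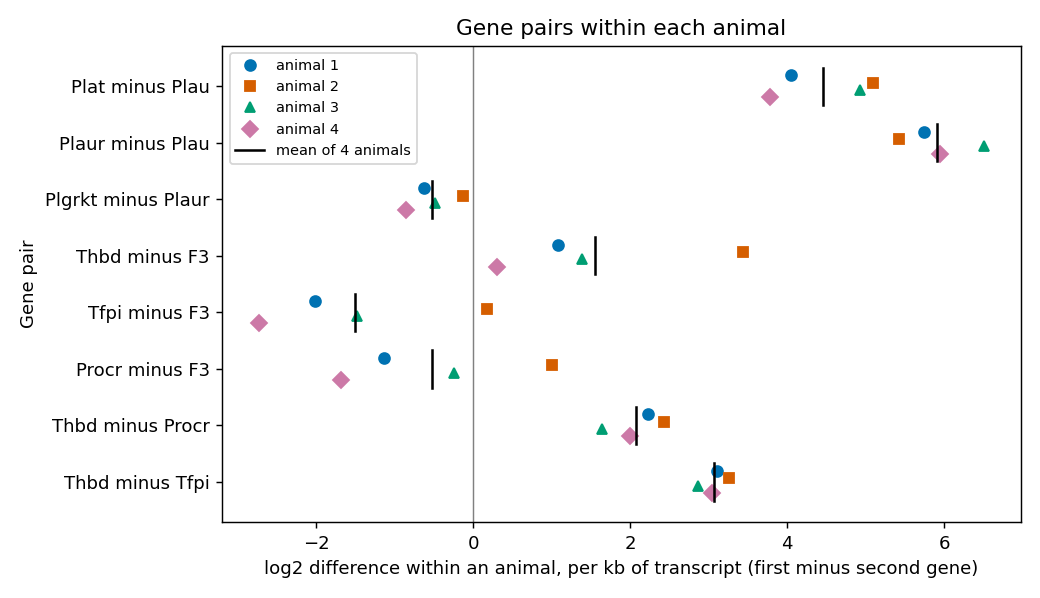
Log2 difference per kilobase of transcript within each animal, first minus second gene, for the 8 pairs in which both genes had counts, with 1 symbol per animal and the mean as a black line. Plat minus Plau and Plaur minus Plau lie right of 0 in every animal, whereas the differences against F3 are the widest and those of Tfpi and Procr change sign in animal 2.

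Thrombomodulin gave the highest CPM of the set and, on the plain library totals, the smallest relative spread. Thbd, a gene with 1 annotated transcript on chromosome 2 at 148404466 to 148408188 (minus strand), had 289, 268, 252 and 308 CPM in animals 1 to 4, a mean of 279 ± 24.5 CPM. Its coefficient of variation (CV, SD over mean) was 8.78%, lower than in all but 8.6% of the 8792 genes with a mean of at least 10 CPM. After TMM scaling of the libraries the CV was 12.9%, still the lowest of the 8 detected genes but close to Plgrkt at 13.3% and Tfpi at 13.6%. By mean CPM it ranked 539th in the table. Thbd, Procr and Tfpi are also genes of vascular endothelium; the 12 blood endothelial genes summed to 388 to 425 CPM, of which Esam gave 351 to 377 and Kdr 34.8 to 66.3 (mean 49.2 CPM, above the means of Procr and Tfpi). Tek averaged 2.64 CPM, and Cdh5, Emcn, Sele, Cldn5 and Erg were at 0. The part of endothelial cells in these levels was not tested.

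Procr, on chromosome 2 at 155751117 to 155755471, encodes the receptor that presents protein C to the complex of thrombin and thrombomodulin. It had 26.3, 21.0, 34.5 and 32.9 CPM, a mean of 28.7 ± 6.24 CPM, with animal 2 the lowest. Thbd exceeded Procr per length in 4 of 4 animals by 2.07 on the log2 scale (SE 0.170, exact permutation p = 0.13).

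Tfpi, on chromosome 2 at 84432855 to 84476775, encodes the inhibitor of the complex of tissue factor and factor VIIa. It had 35.5, 29.6, 36.4 and 39.5 CPM, a mean of 35.2 ± 4.16 CPM, so all 4 animals lay within 1.34-fold. Thbd exceeded Tfpi per length in 4 of 4 animals by 3.06 on the log2 scale (SE 0.0802, exact permutation p = 0.13). That was the tightest difference of the 10 pairs, 8 of which had 1 direction in all 4 animals. Those 8 include F3 minus F5 and F3 minus F13a1, whose direction was fixed because F5 and F13a1 had no count.

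Tissue factor was the member that differed most between animals. F3, on chromosome 3 at 121723537 to 121735048, had 68.4, 12.02, 48.0 and 125 CPM in animals 1 to 4, a mean of 63.3 ± 47.2 CPM. No 2 animals were close, and the highest was 10.4-fold above the lowest. The exact 95% Poisson intervals were 60.9 to 76.3, 9.08 to 15.9, 41.9 to 54.9 and 114 to 136 CPM, so none of them overlapped.

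The CV of F3 was 74.5%, against 6.05% from counting alone. It was higher than the CV of 98.3% of the 8792 genes with a mean of at least 10 CPM, whose median was 22.9%. Among the 3443 genes within 2-fold of the mean of F3 only 25 had a higher CV. Without animal 2 the CV of F3 was 49.5%, above that of 90.4% of genes, and the highest of the other animals was 2.60-fold above the lowest. The CV was 26.1% for Plat, 27.0% for Plaur, 21.7% for Procr, 16.0% for Plgrkt and 11.8% for Tfpi, and the median over the 7 members at 10 CPM or more was 21.7%.

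**Figure D3:**
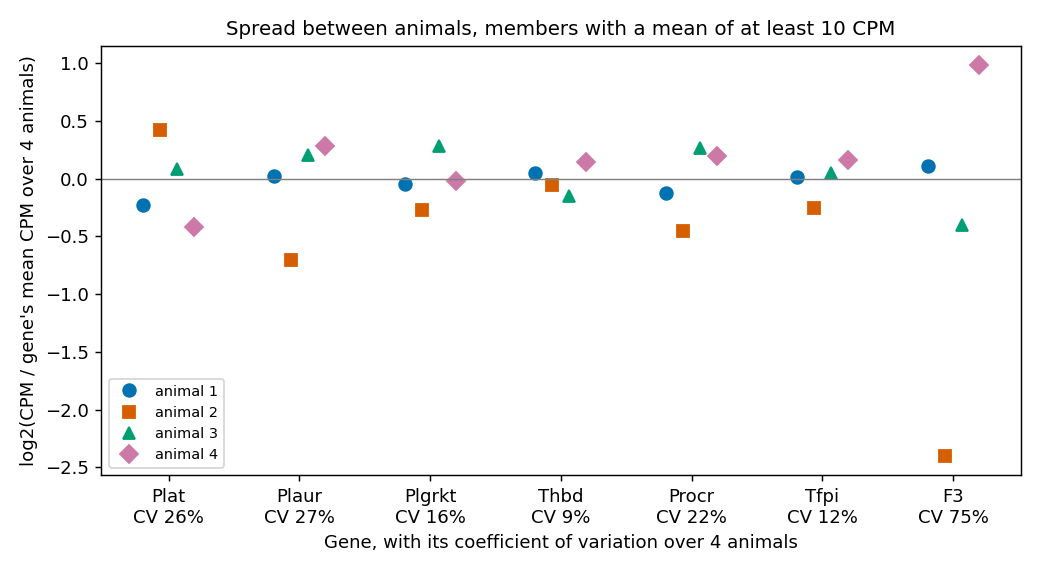
Log2 ratio of each animal's CPM to the gene's mean over 4 animals, for the 7 members with a mean of at least 10 CPM, with the CV under each name. F3 spans from -2.40 in animal 2 to 0.98 in animal 4, Thbd stays within -0.15 to 0.14, and Plat is the member that is highest in animal 2.

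Animal 2 had the lowest level of 5 of these 7 members, namely Plaur, Plgrkt, Procr, Tfpi and F3, where 25.7% of the 8792 genes at 10 CPM or more were lowest in that animal. Plat was highest in animal 2. Thbd was lowest in animal 3 and highest in animal 4. The 5 genes share the library of animal 2 and its total, so they are not separate observations of that animal.

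Some other transcripts had the order of animals of F3 or of Plat. The share of all genes with either order was not counted, and 4 animals are too few for a correlation. By mean chi-square per gene, the libraries of animals 1 and 4 differed least (10.7), and those of animals 2 and 3 next (15.6). A shared order is therefore given as a description only. The summed level of the 10 fibroblast genes was 15100, 22467, 19829 and 14828 CPM in animals 1 to 4, which ran in the same order of animals as Plat and in the reverse order of F3; 9 of the 10 genes lay above 1 CPM and none was at 0. Dcn made up 69.0% to 76.8% of that sum. Of the 9 genes only Col3a1, Dpt and Mfap5 had the order of Plat by themselves. Thy1, at 31.2, 10.5, 30.4 and 33.8 CPM, was lowest in animal 2 and had the order of F3, as did the mesothelial gene Krt18. Genes outside the fibroblast list had the order of Plat too. Among them were the mesothelial gene Krt19, at 1749, 3120, 3091 and 1239 CPM, the early response gene Ier3, and Anxa2, S100a10 and Eno1. The 12 mesothelial genes summed to 16986, 18458, 16469 and 17021 CPM. The 12 early response genes, which digestion and sorting can induce and which include Fos and Jun, all lay above 1 CPM and summed to 12342, 12703, 11040 and 13055 CPM. Single genes of this list differed more: Nr4a1 had 890, 161, 168 and 462 CPM in animals 1 to 4, lowest in animal 2, and Hspa1a ranged from 67.3 CPM in animal 1 to 292 CPM in animal 2. None of the 12 had the order of animals of F3, and 2 of them, Egr1 and Nr4a1, were lowest in animal 2. The 8 platelet genes summed to 24.7, 74.1, 64.1 and 32.1 CPM, nearly all from Itgb3 and Itga2b, which platelets do not hold alone. The part of these transcripts in the levels of F3 and Plat was not tested.

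The ratio of inhibitor to initiator differed between animals. Per kilobase of the longest transcript, Thbd stood above F3 in 4 of 4 animals, at 2.13, 11.2, 2.64 and 1.24 times its level (mean log2 difference 1.55, SE 0.667, exact permutation p = 0.13). Tfpi stood at 0.245, 1.16, 0.358 and 0.149 times the level of F3, so it was lower in 3 animals and higher in animal 2 (mean log2 difference, Tfpi minus F3, -1.51, SE 0.620, exact permutation p = 0.25). Procr also lay under F3 in 3 of 4 animals (mean log2 difference, Procr minus F3, -0.52, SE 0.587, exact permutation p = 0.375).

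The size of these differences depended on animals 2 and 4, the lowest and the highest for F3, and on the transcript length used. Without animal 2, the mean log2 difference per length was smaller for Thbd minus F3, at 0.93, and further from 0 for Tfpi minus F3, at -2.08, and for Procr minus F3, at -1.03. Without animal 4, Procr minus F3 was -0.13. With the median transcript length in place of the longest, Thbd stood above F3 in 3 of 4 animals (mean log2 difference 0.66, exact permutation p = 0.5), with animal 4 at -0.58. With that length Tfpi lay under F3 in all 4 animals, by only -0.041 in animal 2 (mean -1.73, exact permutation p = 0.13). Tfpi itself ranged only from 7.45 to 9.96 CPM per kb, while F3 ranged from 6.42 to 66.7 CPM per kb.

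The cofactor and the fibrin crosslinker were not detected. F5, the gene of factor V, on chromosome 1 at 164151838 to 164220277, and F13a1, the gene of the factor XIII A subunit, on chromosome 13 at 36867178 to 37050244, had 0 counts in all 4 animals. Over the group 3 counts would be 0.171 CPM, and per library 0.657 to 0.733 CPM. The exact 95% Poisson intervals of these zeros reached 0.807 to 0.902 CPM per library. Factor V is made mainly by liver and megakaryocytes, and the A subunit of factor XIII by megakaryocytes, platelets and macrophages.

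Set against the same 3 counts over the group, F3 pooled over the animals was at least 1450-fold higher than F5 per kilobase. Against F13a1 it was at least 770-fold higher. F3 itself ranged from 6.42 to 66.7 CPM per kb, so these folds are no bound for a single animal. The 14 macrophage genes summed to 42.2 to 63.7 CPM, most of it from Csf1r at 34.5 ± 5.22 CPM and Cd68 at 12.5 ± 5.23 CPM. Itgam and Timd4 were at 0, and Adgre1 reached 0.222 CPM in animal 2 and 0 elsewhere. The part of such cells in these values was not tested. Both genes overlap an annotated transcript of the opposite strand, and no source used here says whether the libraries kept strand. The one over F5, Gm16548, also had no count; the one over F13a1, Gm30489, was not analysed here.

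By level per kilobase of the longest annotated transcript, the order was Plaur at 91.5 ± 24.7, Thbd at 75.0 ± 6.59, Plgrkt at 61.9 ± 9.93, F3 at 33.8 ± 25.2, Plat at 33.3 ± 8.70, Procr at 17.8 ± 3.88, Tfpi at 8.88 ± 1.05 and Plau at 1.29 ± 0.317 CPM per kb (SD, n = 4). Neighbours overlapped in range from Plaur down to Plat, so the order of neighbours among those 5 genes was not resolved. F3 exceeded Plat in 2 of 4 animals, and Plaur exceeded Thbd, Thbd exceeded Plgrkt and Plgrkt exceeded F3 in 3 of 4 each. Genes further apart were partly ordered: Plaur exceeded Plgrkt, and Thbd exceeded F3, in 4 of 4 animals. F3 was the least placed, from place 3 to place 7 by animal, so it also crossed Procr and Tfpi. From Plat down the ranges of neighbours did not overlap, and the order Plat, Procr, Tfpi, Plau was the same in every animal. Of the 28 pairs among the 8 genes, 22 kept their order in 4 of 4 animals. With the median transcript length Plgrkt stood above Thbd. With the longest coding transcript Plat stood above F3 at 53.3 CPM per kb, since the longest Plat transcript is not annotated as protein-coding. The same holds for Plaur, which stood at 122 CPM per kb with its coding length (1506 in place of 2009 bases). It also holds for Procr, where the lengths are close (1597 and 1608 bases).

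**Figure D4:**
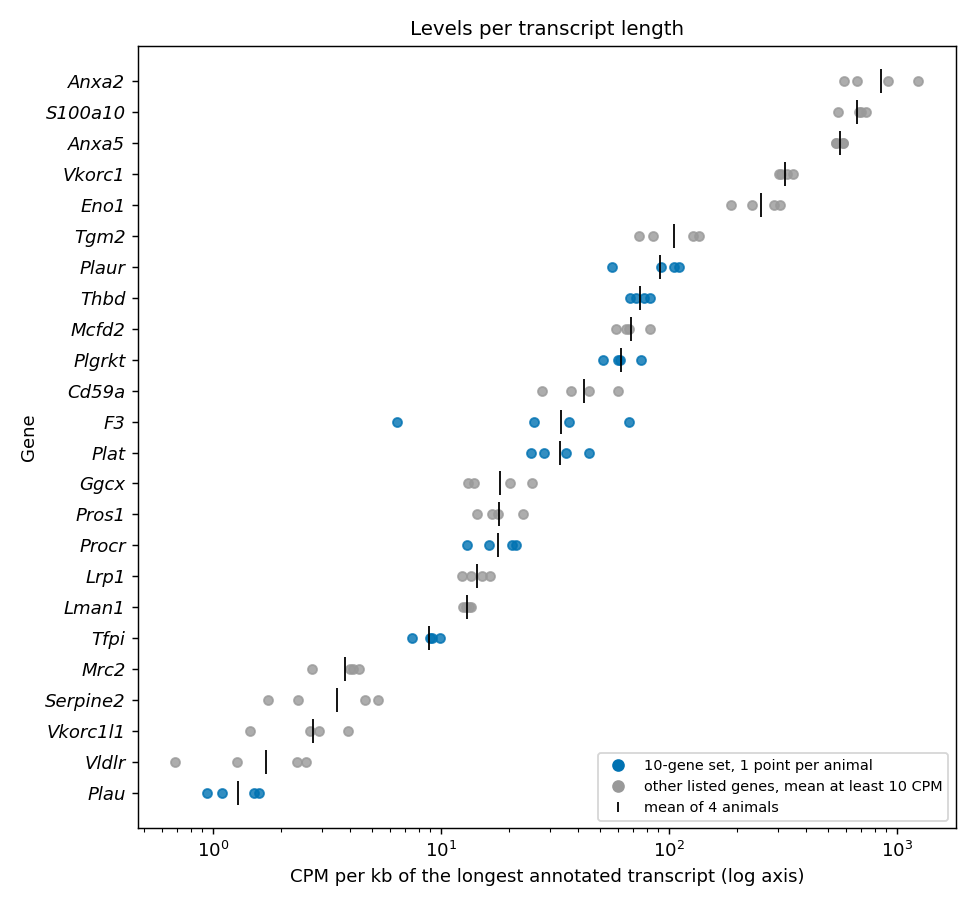
CPM per kilobase of the longest annotated transcript on a log axis for the 8 members with counts (blue) and the other listed clotting and fibrinolysis genes with a mean of at least 10 CPM (grey), 1 point per animal and a black tick at the mean. Anxa2, S100a10 and Anxa5 lie highest, most members lie between 8 and 92 CPM per kb, and Plau is the lowest.

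The other genes of the system were read from a list of 48, of which 18 lay above 1 CPM by edgeR's test adjusted over the whole table (24.7% of all genes) and 17 had no count. Among 7 inhibitors of fibrinolysis 2 passed: Serpine2 (protease nexin 1) at 11.9 ± 5.87 CPM and Serpinb2 (plasminogen activator inhibitor 2) at 3.34 ± 2.39 CPM. Serpinb2 had 5.06, 5.33, 2.77 and 0.189 CPM in animals 1 to 4, the last under the level of 3 counts. It did not pass by limma with voom weights, and it shares an exon sequence with Serpinb10. Serpini1, which encodes neuroserpin, did not pass, with a mean of 0.614 CPM and no count in animals 1 and 3. Serpinf2, the plasmin inhibitor, Serpina5 and Cpb2 had no count.

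Of 8 genes for plasminogen and the proteins that bind it or clear its activators, 6 passed and plasminogen itself (Plg) had no count. Anxa2 averaged 1948 ± 669 CPM and S100a10 458 ± 53.9 CPM, the parts of a complex that gathers plasminogen and tissue-type activator on the surface. Eno1, an enolase that also binds plasminogen, averaged 514 ± 111 CPM. Its level is uncertain, because 4 other genes share at least 200 bases at 95% identity with it. Lrp1, the endocytic receptor of activator and inhibitor complexes, averaged 214 ± 25.8 CPM, and Mrc2 and Vldlr 22.0 ± 4.28 and 13.7 ± 7.06 CPM. Hrg had no count.

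Of 9 genes in the anticoagulant list 3 passed, although Cd59a among them is a complement regulator and not an anticoagulant. Pros1, which encodes protein S, the cofactor of activated protein C, averaged 59.5 ± 11.9 CPM. Anxa5, which binds phosphatidylserine, averaged 972 ± 40.0 CPM and Cd59a 76.8 ± 24.5 CPM. Protein C itself (Proc), Serpina10 and Tfpi2 had no count, and the antithrombin gene Serpinc1 did not pass at 2.20 ± 1.49 CPM.

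Of 12 genes in the list of clotting enzymes and cofactors 2 passed, Tgm2 and F8. Tgm2, the tissue transglutaminase and not itself a clotting factor, averaged 380 ± 110 CPM in cells with no count of F13a1. Its exons overlap those of Gm20412 and Rprd1b on the opposite strand. F8 had 7.97, 0, 1.55 and 6.81 CPM in animals 1 to 4, with animal 2 without a count, and did not pass by limma with voom weights. F7, F11, F12 and F13b had no count in any animal, nor had the 3 fibrinogen chain genes Fga, Fgb and Fgg, and Vwf averaged 0.577 ± 0.582 CPM.

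None of the 4 genes of the protease-activated receptor family (F2r, F2rl1, F2rl2 and F2rl3) passed in the edgeR test. Nor did any at an unadjusted p under 0.05 or by DESeq2 or limma with voom weights. F2rl1 averaged 1.71 ± 0.718 CPM and F2r 1.18 ± 0.888 CPM, and F2rl2 and F2rl3 had no count. All 5 genes of the vitamin K cycle and of factor transport passed: Vkorc1 at 243 ± 16.0 CPM, Mcfd2 at 139 ± 20.8 CPM, Lman1 at 61.1 ± 2.11 CPM, Ggcx at 53.2 ± 16.5 CPM and Vkorc1l1 at 13.2 ± 4.90 CPM. Lman1 and Mcfd2 form the receptor that carries factors V and VIII out of the endoplasmic reticulum, and they were present in cells with no count of F5.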

How the data were processed

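RNA-seq libraries of 4 animals were used, 1 column per animal. The deposited table holds estimated counts by gene symbol, read as such from the values, of which 99.75% to 99.95% of those above 0 are not whole. Per the submitters' processing notes, kallisto 0.43.1, edgeR 3.24.3, limma 3.38.3 and GRCm38.p5 were used, with no role given; no source used here says how transcripts were joined into genes. Estimated counts depend on transcript length and on how reads were split between similar transcripts.

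CPM was the value over its column total. For the test across genes, values were rounded and the level of each gene was set against 1 CPM with edgeR 4.0.16 (R 4.3.3) in a fit with an intercept alone, one-sided, Benjamini-Hochberg adjusted over 48425 genes, threshold 0.05. The statistic was computed from deviances and tested on simulated data. Gene pairs were compared within animals on log2(CPM + 0.5), divided by the longest GENCODE M21 transcript (GRCm38; 47597 symbols matched), by exact sign-flip permutation. Levels given as times or fold of another gene were taken without the added 0.5 CPM. Similar transcripts were sought with BLAST 2.17.0. Libraries differed beyond sampling noise (mean chi-square per gene 10.7 to 26.4), so all 4 were kept. They come from separate animals.

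The 10 genes, the lists and the pairs were chosen with earlier results of these data known. All 10 were named, and of each other list the 3 highest, those at 10 CPM or more and those without a count; cell type genes are named in part. One further gene and its pair are not reported here and stand in no count of the lists or pairs. DESeq2 1.42.0, limma 3.58.1 with voom weights, other scalings, filters, thresholds, lengths and pseudocounts were tried. One alternative, the longest coding transcript, was added after seeing the data.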

Additional observations from a re-analysis of the deposited data

How the results depend on the processing

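The 8 calls above 1 CPM were the same genes under TMM scaling, DESeq2 size factors, the DESeq2 Wald test, limma with voom weights, a filter at 10 counts, unrounded values and without any 1 animal. At a level of 5 CPM in place of 1 CPM, 7 of the 10 genes and 9200 genes of the table (19.0%) passed, and Plau did not (adjusted p = 1 by edgeR). The table's count ranged from 11494 with voom weights to 12196 with the filter, and without 1 animal from 11698 to 11843. The means of all 10 pair differences kept their sign under other lengths, pseudocounts and without any 1 animal. For F3 minus F5 and F3 minus F13a1 that sign was fixed, because F5 and F13a1 had no count. With the median transcript length Thbd minus F3 was 0.66 and was positive in 3 of 4 animals, and Tfpi minus F3 was negative in all 4; the number of animals changed for no other pair or setting that kept 4 animals. No p could pass the threshold with 4 animals. Without 1 animal, Thbd minus F3 ranged from 0.93 to 1.97, Tfpi minus F3 from -2.08 to -1.11 and Procr minus F3 from -1.03 to -0.13 (log2 per length). None of 34 sets of 4 values had a single animal far from the others by Dixon's test. With 4 values per set, this test flags only a very wide gap. F3, whose highest animal was 10.4-fold above its lowest, was not flagged. The test therefore cannot show that no animal stood apart, and no conclusion is drawn from it. No paired comparison of conditions was possible because the series holds 1 group. Only genes were paired, within animals. By limma with voom weights Serpinb2, F8 and the endothelial gene Tek lost their calls (Tek adjusted p = 0.0417 by edgeR and 0.683 with voom weights), and the granulocyte gene Cxcr2 gained one. Depth limits the members Plau, F5 and F13a1.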
